A study of Mus musculus with 35 samples.

Results

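The genes described here are the nuclear-encoded subunits of oxidative phosphorylation, found as the protein-coding mouse genes whose symbols carry the family names of complex I (Nduf), complex II (Sdh), complex III (Uqcr), complex IV (Cox4 to Cox8) and complex V (Atp5). The rule gave 91 genes of the 53379 identifiers in the count table. The 82 structural subunits comprise 36 of complex I, 4 of complex II, 8 of complex III, 18 of complex IV and 16 of complex V. Ndufa4 and Ndufa4l2 were placed with complex IV, where the Ndufa4 protein is now known to reside. The other 9 are Atp5s and the Ndufaf genes, which are not part of a finished complex. The rule itself uses symbols alone, but the gene family was chosen with earlier results of these data known.

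Oxidative phosphorylation takes place in the inner mitochondrial membrane. Complexes I and II pass electrons from NADH and succinate to ubiquinone, complex III passes them on to cytochrome c, and complex IV passes them to oxygen. Protons pumped by complexes I, III and IV drive ATP synthesis by complex V. Most subunits are encoded in the nucleus, while a small core of complexes I, III, IV and V is encoded by mitochondrial DNA, and complex II is nuclear throughout. Mature neutrophils are known for few mitochondria and a reliance on glycolysis, whereas monocytes and macrophages hold more mitochondria.

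RNA was sequenced from myeloid-derived suppressor cells (MDSC) of female C57BL/6 mice bearing orthotopic pancreatic tumors grown from T110299 cells, a line from 1 mouse that carried Ptf1a-Cre and LSL-Trp53fl/R172H. The mice received intravenous glucose (untreated) or poly(I:C)c on days 18 and 20 after tumor induction. Poly(I:C)c is 50 µg of the double-stranded RNA poly(I:C) complexed with the carrier in vivo-jetPEI, and acts as a ligand of cytosolic RNA sensors. CD11b+ cells were enriched magnetically and sorted into PMN-MDSC (Ly6Clo Ly6G+) and M-MDSC (Ly6Chi Ly6G-), from spleen and from tumor. All mice carried tumors, so no group here stands for a healthy mouse. PMN-MDSC gave 4 libraries from spleen and 4 from tumor of untreated mice, and 3 and 4 of treated mice. M-MDSC gave 4 libraries from each site of untreated mice, 4 from spleen and 3 usable ones from tumor of treated mice, after 1 library with 10 counts was left out. Bulk tumor tissue of untreated mice gave 4 libraries. The 30 sorted libraries held 793070 to 4357105 counts, of which 2535 to 17069 fell on the 91 genes (0.126% to 0.492%).

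The sorted populations were checked against marker genes before the results. In untreated spleen the neutrophil markers went with the labels: the summed level of 8 neutrophil markers was 14266 to 23875 CPM (a count divided by its library total, on a common scale) in untreated PMN-MDSC and 1479 to 2697 in untreated M-MDSC. Levels of monocyte markers and of treated groups are not given here. The M-MDSC label and the labels of treated groups therefore rest on the sort. By RNA, tumor PMN-MDSC went against their label. The gate itself reads surface protein, and the paper reports high mean purities for the sorted tumor cells. Ly6g, the marker of the sorting gate, averaged 55.2 CPM in untreated splenic PMN-MDSC and 2.94 CPM in untreated tumor PMN-MDSC. The 8 neutrophil markers summed to 1439 to 3829 CPM in the latter, while 7 macrophage markers summed to 9770 to 13340 CPM, against 416 to 1305 in splenic PMN-MDSC and 3389 to 8357 in tumor M-MDSC. All markers of both lists were detected in these 4 untreated groups. The former are therefore called the libraries labelled tumor PMN-MDSC where a direction is drawn from them, and the part of other cells in those results was not tested. In sorted populations as in tissue, fewer cells of one type and less RNA per cell cannot be told apart.

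The score of a library, the mean log2(CPM + 1) over the 91 genes, was lowest in splenic PMN-MDSC. Untreated splenic PMN-MDSC scored 3.67, 3.53, 3.54 and 3.53, a mean of 3.57 ± 0.07 (SD, n = 4). Untreated splenic M-MDSC scored 4.65, 4.66, 4.57 and 4.63, a mean of 4.63 ± 0.04 (SD, n = 4). The groups did not overlap, and differed by 1.06 ± 0.04 (SE) on this log2 scale. The libraries labelled tumor PMN-MDSC lay between them, with 4.28, 4.06, 4.22 and 4.10 in untreated mice. Tumor M-MDSC of untreated mice scored 4.45, 4.46, 4.44 and 3.82; the lowest was the smallest library of the series, with 793070 counts. Bulk tumor scored 3.91 to 4.56.

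The order of the untreated groups was splenic PMN-MDSC, the libraries labelled tumor PMN-MDSC, tumor M-MDSC and splenic M-MDSC. The libraries labelled tumor PMN-MDSC and tumor M-MDSC overlapped, and their difference of 0.13 ± 0.17 (SE) was smaller than the spread between libraries. It was 0.07 to 0.29 with 1 library left out, the latter without M-MDSC library 4, when the other 3 at 4.44 to 4.46 lay above all libraries labelled tumor PMN-MDSC at 4.06 to 4.28. After treatment splenic PMN-MDSC scored 3.62, 2.87 and 3.29, tumor PMN-MDSC 3.89 to 4.47, splenic M-MDSC 4.56 to 4.71 and tumor M-MDSC 4.44 to 4.62. Each treated group overlapped its untreated counterpart.

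**Figure D1:**
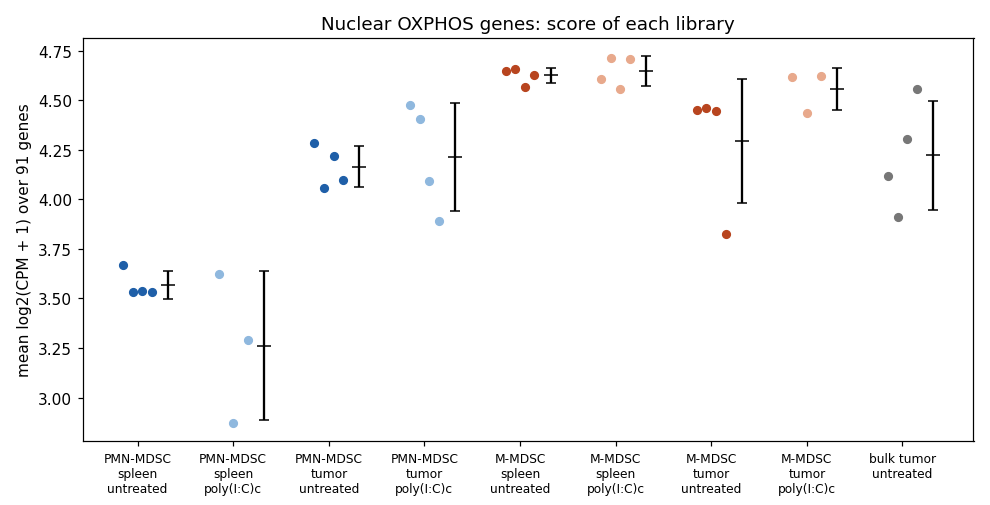
Score of the 91 genes in each library, as mean log2(CPM + 1) on the vertical axis, for the 8 sorted groups and bulk tumor. Points are libraries, and the dash with its bar is the mean ± SD; untreated splenic PMN-MDSC at 3.53 to 3.67 lie below all untreated splenic M-MDSC at 4.57 to 4.66.

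CPM divides by the library total, and the fitted folds given from here on also use TMM scaling, which corrects for the few very abundant genes of a library. The TMM factors were 0.693 to 0.920 in untreated splenic PMN-MDSC and 1.18 to 1.26 in untreated splenic M-MDSC. A fitted fold between these groups is therefore smaller than the ratio of their CPM. With TMM-scaled CPM the score difference between them was 0.57. Upper-quartile scaling moved the median log2 change over all genes from 0.08 to 0.33 in this comparison, and such shifts are given where they touch a result. CPM levels of the members and the overlap of groups are those of the library total.

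Members were not equally abundant within a cell. Per kilobase of exon (FPKM), Atp5a1, the alpha subunit of the ATP synthase head, was the highest in untreated splenic M-MDSC at 139.8 ± 11.1 (SD, n = 4), followed by Cox8a, a small subunit of complex IV, at 97.5 ± 9.25. In untreated splenic PMN-MDSC this order was turned, with Cox8a at 83.6 ± 7.15 FPKM and Atp5a1 at 47.0 ± 7.42. Atp5b, the catalytic beta subunit, followed at 36.9 ± 4.21 FPKM, next to Cox6a1 of complex IV at 36.7 ± 4.49, and these last values did not differ beyond their spread. The tissue-specific isoforms of complex IV were near the detection limit. Cox6a2, Cox7a1 and Cox8b, the forms of heart and skeletal muscle, Cox6b2, Cox7b2 and Cox8c, the forms of testis, and Ndufa4l2, a hypoxia-related relative of Ndufa4, reached at most 9 counts in any sorted library, and Cox8b had 0. With a floor of 3 counts, a count of 0 allows up to 0.689 to 3.78 CPM, depending on the library; such limits cover counting error only. Of the subunit c genes of the ATP synthase, which encode the same mature protein, Atp5g3 was at 16.4 ± 1.64 FPKM in untreated splenic M-MDSC, Atp5g2 at 4.02 ± 2.29 and Atp5g1 at 3.17 ± 0.50, and the last pair did not differ beyond their spread. Atp5g2 overlaps Mir688 on the same strand.

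RefSeq (GRCm38.p6) gave a window before the start site for 76 of the 91 genes, matched by symbol or older name. The 250 bases before each RefSeq start were searched on both strands for the letters GCGCA and GCGC 1 base apart (NRF1), CCGGAAG (ETS factors, among them GABP), AANATGGCG (YY1) and GGGCGG (SP1). For 47 of the 76 a window ran into the gene as the annotation of the counts places it, so that these windows hold bases of the gene as well. Sequences are shown for genes whose window lay wholly outside it and which were higher in splenic M-MDSC than PMN-MDSC of untreated mice. Ndufc2 (ENSMUSG00000030647.8, chr7:97400003-97407802, plus strand) and Ndufa9 (ENSMUSG00000000399.10, chr6:126821721-126849136, minus strand) had the largest folds among them, and Ndufa11 (ENSMUSG00000002379.6, chr17:56717767-56722141, plus strand) was the next by fold that held an NRF1 or ETS motif; the build is GRCm38. Capitals mark a match: Ndufc2 and Ndufa9 held none of the 4 motifs, and Ndufa11 held 1 NRF1 match. The windows are chr7:97399753-97400002 (plus strand), chr6:126849145-126849394 (minus strand) and chr17:56717512-56717761 (plus strand), written 5′ to 3′ along the gene.
Ndufc2: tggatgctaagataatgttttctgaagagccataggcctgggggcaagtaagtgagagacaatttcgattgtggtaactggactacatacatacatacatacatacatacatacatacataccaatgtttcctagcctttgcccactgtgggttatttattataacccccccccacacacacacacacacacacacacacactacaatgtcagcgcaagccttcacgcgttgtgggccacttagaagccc
Ndufa9: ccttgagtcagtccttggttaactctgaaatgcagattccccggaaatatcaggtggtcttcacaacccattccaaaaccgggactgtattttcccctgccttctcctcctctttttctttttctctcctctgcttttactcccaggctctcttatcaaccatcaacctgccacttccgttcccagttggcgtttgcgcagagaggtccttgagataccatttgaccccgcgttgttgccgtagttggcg
Ndufa11: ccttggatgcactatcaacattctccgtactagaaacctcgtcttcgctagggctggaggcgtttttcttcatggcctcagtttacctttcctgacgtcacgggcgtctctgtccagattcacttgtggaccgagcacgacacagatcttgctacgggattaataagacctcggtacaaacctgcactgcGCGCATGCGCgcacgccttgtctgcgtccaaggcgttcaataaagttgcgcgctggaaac
Among the 76 members with a window, 14 held the NRF1 letters (18.4%), as did 4.23% of 27025 genes. The ETS letters were also in 14 (18.4%, against 7.83% of all genes), the YY1 letters in 3 (3.95%, against 1.29%) and the SP1 letters in 31 (40.8%, against 35.4%). These matches describe letters in a window, and none is a measured binding site. Sdha of complex II and Ndufb4 of complex I held 3 NRF1 matches each. Of 36 members with a window that were higher in M-MDSC in untreated spleen, 4 held the NRF1 letters (11.1%), as did 6 of the 20 that were tested there and did not pass.

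Which subunits differ between the 2 MDSC types was read first in spleen of untreated mice. There, 67 of the 91 genes reached a mean of 25 counts and were tested, and 45 were higher in M-MDSC and 0 lower, at an adjusted p under 0.05 (edgeR quasi-likelihood test, adjusted over 8579 genes). Over all genes tested, 33.4% were higher by the same rule and 64.4% were called in either direction. The median log2 fold change was 0.76 over the members tested and 0.08 over all genes. Of the genes called, 51.9% were higher with TMM and 64.5% with upper-quartile scaling, under which 59 members were higher and 0 lower. Of the 45, 10 averaged under 25 counts in PMN-MDSC and so were tested only through their level in M-MDSC, as were 20.3% of the other genes called; they are Ndufc2, Ndufs3, Ndufa4, Ndufa11, Uqcrb, Uqcr10, Uqcr11, Cox7c, Atp5g1 and Atp5k. At the stricter rule of an adjusted p under 0.001 and a 2-fold change, 13 of 67 members passed by edgeR and 18 by DESeq2, beside 23.2% of all genes in either direction by edgeR. Marker levels moved with this comparison: the summed level of 8 proliferation genes was 111 to 405 CPM in PMN-MDSC and 549 to 1184 in M-MDSC, and its part in the result was not tested.

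In complex III all 8 tested subunits passed, of which Uqcrb, Uqcr10 and Uqcr11 were tested only through M-MDSC. Uqcrfs1, the Rieske iron-sulfur protein that takes electrons from ubiquinol, had 22.3, 20.9, 16.3 and 15.7 CPM in splenic PMN-MDSC and 71.2, 68.7, 70.4 and 59.5 in splenic M-MDSC. The groups lay far apart, and the fitted log2 fold change was 1.47 ± 0.17 (SE, adjusted p = 6.91e-05, edgeR). Uqcrb, a small subunit needed for assembly, had 7.43, 3.98, 8.47 and 6.42 CPM against 17.9, 17.7, 18.2 and 27.9 (log2 1.25 ± 0.26, adjusted p = 0.00217, edgeR). Uqcrc1, a core protein, had 42.7 to 52.7 CPM against 120.4 to 141 (log2 1.05 ± 0.13, adjusted p = 0.000135, edgeR).

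In complex I, 17 of 28 tested subunits were higher in M-MDSC. Ndufc2, an accessory subunit of the membrane arm, had 11.9, 1.99, 6.10 and 7.06 CPM in PMN-MDSC and 34.3, 37.6, 35.6 and 35.9 in M-MDSC, without overlap (log2 1.97 ± 0.33, adjusted p = 0.000684, edgeR). Ndufv1, which binds NADH and FMN at the tip of the matrix arm, had 16.4, 14.9, 14.9 and 14.8 CPM against 53.3, 49.2, 53.8 and 47.6 (log2 1.36 ± 0.14, adjusted p = 3.49e-05, edgeR). The Ndufv1 groups stood far apart, with little spread in either. Ndufs1, the largest subunit of the same arm and like Ndufv1 a carrier of iron-sulfur clusters, had 43.5, 32.9, 50.5 and 58.8 CPM against 55.9, 54.3, 65.8 and 71.4. These groups overlapped, with a fitted log2 difference of 0.04 ± 0.18 (adjusted p = 0.861, edgeR). Of the other genes whose windows are shown above, Ndufa9 was at 9.17 ± 5.54 CPM in PMN-MDSC and 33.5 ± 5.46 in M-MDSC (log2 1.46 ± 0.35, adjusted p = 0.00482, edgeR), and Ndufa11, an accessory subunit of the membrane arm, at 6.63 ± 1.93 and 19.3 ± 3.46 CPM (log2 1.18 ± 0.27, adjusted p = 0.00380, edgeR).

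Complex II split in the same way. Sdhb, its iron-sulfur subunit, had 30.8 to 36.4 CPM in PMN-MDSC and 63.3 to 84.1 in M-MDSC (log2 0.76 ± 0.15, adjusted p = 0.00193, edgeR), and Sdhc, a membrane anchor, also passed at 0.91 ± 0.22 (adjusted p = 0.00513, edgeR). Sdha, the flavoprotein that oxidizes succinate, had 107 to 132 CPM against 165 to 187. Its CPM did not overlap, but the fitted difference after TMM scaling was 0.10 ± 0.12 (adjusted p = 0.488, edgeR). For Sdhd, the other anchor, it was 0.31 ± 0.27 (adjusted p = 0.339, edgeR).

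Complex IV had 7 of 11 tested members higher in M-MDSC. Cox6c, a small subunit, had 48.3, 45.8, 42.7 and 43.7 CPM in PMN-MDSC against 143, 145, 130.4 and 111 (log2 1.18 ± 0.14, adjusted p = 8.47e-05, edgeR). Cox5a, another nuclear subunit, was among the smallest folds that passed, at 0.63 ± 0.21 (adjusted p = 0.0236, edgeR), and did not pass with RLE scaling or in the fit over all 8 groups (adjusted p = 0.0542 and 0.0857). Cox8a had 45.3 to 55.2 CPM against 54.3 to 67.5, overlapping, with a fitted difference of -0.16 ± 0.13 (adjusted p = 0.326, edgeR). Cox8a was thus a subunit of high level without a shift like that of Cox6c. Ndufa4 had 5.98 to 11.4 against 13.6 to 22.7 CPM and passed (log2 0.93 ± 0.27, adjusted p = 0.0141, edgeR). The general isoforms Cox7a2 and Cox6a1 did not, at 0.71 ± 0.29 and 0.41 ± 0.17 (adjusted p = 0.0521 and 0.0627, edgeR), while Cox7a2 passed with a replicate block, a term for the number that libraries of both groups share (adjusted p = 0.0384, edgeR).

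Complex V had 10 of 15 tested members higher. Atp5g1 had 4.78, 2.49, 1.35 and 2.57 CPM in PMN-MDSC and 18.99, 13.9, 13.7 and 15.7 in M-MDSC, the largest fitted difference of the comparison (log2 2.05 ± 0.33, adjusted p = 0.000506, edgeR). Atp5g1 had 4 to 18 counts in these PMN-MDSC libraries, and passed the filter in 4 of 8 fits with 1 library left out, at log2 1.79 to 2.45. Its paralog Atp5g3 had 9.29 to 13.2 against 31.9 to 39.0 CPM (log2 1.29 ± 0.19, adjusted p = 0.000271, edgeR). Atp5a1 had 181, 143, 139 and 127 CPM against 418, 449, 483 and 404 (log2 1.20 ± 0.14, adjusted p = 6.78e-05, edgeR). Atp5b, its partner in the catalytic head, had 182, 155, 142 and 146 against 298, 285, 286 and 291 CPM (log2 0.51 ± 0.11, adjusted p = 0.00330, edgeR). The alpha and beta subunits, which stand in equal number in the enzyme, were both higher in M-MDSC, with the smaller fitted fold for Atp5b. The smallest folds that passed also included Atp5mpl (0.51 ± 0.16), which did not pass without the filter or in the fit over all 8 groups (adjusted p = 0.0685 and 0.0805, edgeR). Of the assembly factors in the naming rule, Ndufaf7 passed, at 1.21 ± 0.23 (adjusted p = 0.00127, edgeR).

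In spleen of treated mice, 40 of 65 tested members were higher in M-MDSC and 0 lower, beside 32.4% of all genes higher and 61.2% in either direction. By edgeR 8 passed the stricter rule and by DESeq2 19, beside 21.2% of all genes by edgeR. With upper-quartile scaling 47 were higher and 0 lower, while the share of called genes that were higher moved from 53.0% to 65.8%. The counts by complex were 17 of 28, 2 of 4, 5 of 8, 7 of 10 and 9 of 14 from complex I to V. Of the 40, 14 averaged under 25 counts in PMN-MDSC and were tested only through M-MDSC, as were 35.4% of the other genes called. Among these 14, Ndufc2 and Ndufs3 had 5 to 10 counts in each PMN-MDSC library, so their folds rest on few counts. Ndufc2 was at 5.76, 1.86 and 3.60 CPM in PMN-MDSC and 34.7, 43.4, 36.8 and 26.5 in M-MDSC (log2 2.75 ± 0.38, adjusted p = 0.000501, edgeR). Ndufs3, a core subunit of the matrix arm, was at 4.48, 1.86 and 3.60 against 18.5, 18.6, 23.3 and 28.7 CPM (log2 2.22 ± 0.35, adjusted p = 0.000927, edgeR). Ndufa5, an accessory subunit of that arm, had 1 to 2 counts in each of the 3 PMN-MDSC libraries, 4 counts in all, and 173 counts over the 4 M-MDSC libraries. Scaled to the library totals, without TMM, its ratio was 27.2, with an exact 95% counting interval of 10.4 to 101. The interval covers counting error only, not the spread between libraries. Ndufa5, also one of the 14, passed the filter in 3 of 7 fits with 1 library left out. Sdha passed here (log2 0.67 ± 0.17, adjusted p = 0.00858, edgeR), with 71.3 to 80.6 CPM in PMN-MDSC and 164 to 193 in M-MDSC. It was among the smallest folds that passed, with Atp5h of the stalk of complex V (0.64 ± 0.19) and Ndufa6 of complex I (0.57 ± 0.17); the last did not pass without the filter or in the fit over all 8 groups (adjusted p = 0.0877 and 0.0646, edgeR). A replicate block lost 10 of the 40 calls, among them Atp5h and Ndufa6 (adjusted p = 0.0644 and 0.0859, edgeR).

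**Figure D2:**
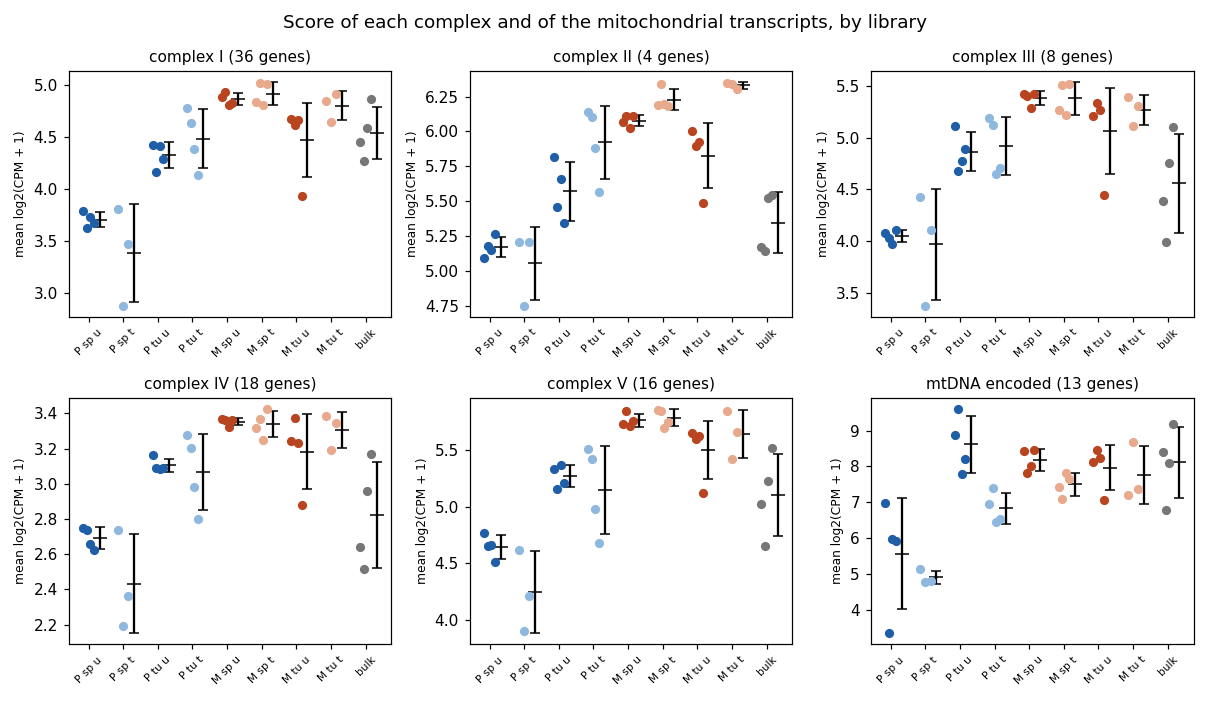
Mean log2(CPM + 1) of the genes of complexes I to V and of the 13 subunits encoded by mitochondrial DNA, for each library (points) with mean ± SD (dash and bar); P and M are PMN-MDSC and M-MDSC, sp and tu spleen and tumor, u and t untreated and treated. In each nuclear complex untreated splenic M-MDSC lie above untreated splenic PMN-MDSC, and the lowest point of untreated tumor M-MDSC is the library of 793070 counts.

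The same contrast was drawn in tumor, with the limit on the labels given above. Of 62 tested members, 2 were higher in M-MDSC of untreated mice and 0 lower, beside 5.73% of all genes higher and 13.0% in either direction. By the stricter rule 0 passed by edgeR and by DESeq2, beside 1.65%. Without M-MDSC library 4, the smallest, 5 passed, and without PMN-MDSC library 2, 3 or 4 only 1 did. Both had non-overlapping CPM. Uqcrfs1 had 41.2, 29.3, 29.97 and 28.5 CPM in the libraries labelled tumor PMN-MDSC and 67.1, 64.7, 56.3 and 55.5 in tumor M-MDSC (log2 0.88 ± 0.18, adjusted p = 0.00648, edgeR). Atp5a1 had 289, 189.6, 289 and 259 CPM against 346, 364, 443 and 468 (log2 0.62 ± 0.17, adjusted p = 0.0279, edgeR). In treated mice 0 of 71 tested members passed by edgeR or DESeq2, and 6 had an unadjusted p under 0.05 by edgeR, beside 0.38% of all genes in either direction. The median fitted log2 fold change of the tested members was 0.21 in untreated and 0.26 in treated mice, and 0.01 and 0.07 over all genes.

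Across sites, the libraries labelled tumor PMN-MDSC were compared with splenic PMN-MDSC of untreated mice. Of 58 tested members, 26 were higher in tumor and 1 lower, beside 29.4% of all genes higher, 29.7% lower and 59.1% called in either direction. The median log2 fold change was 0.42 over the members tested and 0.01 over all genes. No member passed the stricter rule of an adjusted p under 0.001 and a 2-fold change by edgeR, while DESeq2 passed 3, beside 21.7% of all genes by edgeR. With upper-quartile scaling 34 members were higher and 0 lower. Without splenic library 3 or 4, 16 or 15 members passed. Ndufc2 and Uqcrb averaged under 25 counts in spleen and were tested only through tumor. Ndufc2 had 27.3, 32.5, 28.8 and 16.6 CPM in tumor, all above the 1.99 to 11.9 CPM in spleen (log2 1.80 ± 0.38, adjusted p = 0.00218, edgeR). Uqcrb had 20.0, 27.1, 15.2 and 14.7 CPM in tumor (log2 1.41 ± 0.30, adjusted p = 0.00238, edgeR), and Ndufa9, an accessory subunit at the junction of the 2 arms of complex I, had 30.3, 18.96, 23.6 and 27.03 CPM against 16.98, 6.97, 4.07 and 8.67 (log2 1.30 ± 0.36, adjusted p = 0.00988, edgeR). Among the smallest folds that passed were Atp5b (0.46 ± 0.15) and Uqcrq of complex III (0.59 ± 0.19); without the filter neither passed (adjusted p = 0.242 and 0.161, edgeR), nor did Uqcrq in the fit over all 8 groups (0.0801). The 1 member that fell was Ndufb9, with 26.5 to 37.8 CPM in spleen and 19.5 to 27.2 in tumor (log2 -0.61 ± 0.21, adjusted p = 0.0293, edgeR). Its groups overlapped, and its exons share bases with Gm49356 on the same strand. Ndufb9 was named after its value was seen.

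By complex, 11 of 25 tested members of complex I, 1 of 4 of complex II, 4 of 7 of complex III, 3 of 9 of complex IV and 7 of 13 of complex V were higher in tumor. The macrophage and neutrophil marker sums given above moved with this comparison in every library.

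The untreated splenic PMN-MDSC libraries also served in the comparison with splenic M-MDSC. In treated mice 19 of 62 tested members were higher in the libraries labelled tumor PMN-MDSC than in splenic PMN-MDSC and 1 was lower, beside 28.2% of all genes higher, 25.4% lower and 53.6% in either direction. By the stricter rule 2 passed by edgeR and 4 by DESeq2, beside 13.0% of all genes by edgeR. The fit over all 8 groups gave 28 higher and 3 lower, and no share over all genes was computed for that fit. The share of called genes that were higher was 52.6% with TMM and 64.4% with upper-quartile scaling, under which 28 members were higher and 0 lower. Without splenic library 2 or 3 the count was 9 or 8, and without tumor library 1 or 2 it was 11 or 13. Of the 20 called, 9 averaged under 25 counts in spleen and were tested only through tumor, as were 35.6% of the other genes called; Ndufc2, Ndufs3 and Ndufa5 are among the 9. Ndufc2 had 36.4, 32.8, 25.5 and 26.3 CPM in tumor against 5.76, 1.86 and 3.60 in spleen (log2 2.65 ± 0.36, adjusted p = 0.00057, edgeR). Ndufa5 had 228 counts over the 4 tumor libraries and 4 over the 3 spleen libraries, a ratio of library-total levels of 36.1 with an exact 95% counting interval of 13.9 to 134. The interval covers counting error only, not the spread between libraries. Ndufa5 passed the filter in 6 of 7 fits with 1 library left out. Ndufs3 had 20.8, 19.8, 10.9 and 20.7 CPM in tumor against 1.86 to 4.48 in spleen (log2 2.07 ± 0.41, adjusted p = 0.00323, edgeR). The smallest folds that passed without overlap were those of Atp5a1 (0.88 ± 0.26), Atp5b (0.79 ± 0.28) and Uqcrc1 (0.52 ± 0.19); the last had an adjusted p of 0.123 with a replicate block, 0.0525 with RLE and 0.274 without the filter (edgeR), and 0.0501 by DESeq2. The 1 member that was lower, Ndufb7 of complex I, had 27.8 to 34.1 CPM in tumor and 24.1 to 48.0 in spleen (log2 -0.69 ± 0.24, adjusted p = 0.0381, edgeR), with overlap, and was named after its value was seen; with a replicate block its adjusted p was 0.0672 (edgeR). The comparison with splenic M-MDSC shares these 3 spleen libraries, of which 1 had a score of 2.87, the lowest of all sorted libraries.

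M-MDSC differed little between the sites. In untreated mice 1 of 70 tested members was higher in tumor and 2 were lower, beside 15.7% of all genes higher, 12.7% lower and 28.4% called in either direction. By the stricter rule 0 passed by edgeR and 1 by DESeq2, beside 8.6%. Upper-quartile scaling gave 0 higher and 4 lower, and moved the share of called genes that were higher from 55.2% to 39.3%. Without tumor library 4 the count was 6, and without splenic library 2, 3 or 4 or tumor library 3 it was 1. Ndufaf7, a methyltransferase that acts in assembly of complex I, had 18.5, 30.7, 26.5 and 27.1 CPM in spleen and 8.25, 9.44, 10.5 and 6.30 in tumor (log2 -1.26 ± 0.24, adjusted p = 0.00189, edgeR), and averaged 18.0 counts in tumor, under the required mean. Uqcrc2, a core protein of complex III, had 48.0 to 58.3 CPM in spleen and 26.5 to 35.7 in tumor (log2 -0.47 ± 0.14, adjusted p = 0.0286, edgeR), and did not pass without the filter or in the fit over all 8 groups (adjusted p = 0.113 and 0.0641). Atp5mpl, a small subunit of complex V, was higher in tumor with overlapping groups (log2 0.55 ± 0.18, adjusted p = 0.0346, edgeR), and was named after its value was seen. In treated mice 0 of 76 tested members passed by edgeR, beside 5.87% of all genes, and 1, Ndufa4, passed as lower in tumor by DESeq2, while 10 had an unadjusted p under 0.05 by edgeR.

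Whether the step from spleen to tumor differed between the 2 cell types in untreated mice was tested by an interaction over the 4 groups. Of 65 tested members, 21 had a lower step in M-MDSC than in PMN-MDSC and 0 a higher one, beside 37.3% of all genes called in either direction, 17.5% higher and 19.8% lower. By the stricter rule 0 passed by edgeR and 2 by DESeq2, beside 6.92%. The median interaction was -0.53 on the log2 scale over the members tested and -0.10 over all genes. The largest was Ndufc1, an accessory subunit of complex I, at -2.04 ± 0.68 (adjusted p = 0.0260, edgeR). Its mean level was 3.05 CPM in splenic and 16.4 in tumor PMN-MDSC, and 12.2 and 11.2 CPM in M-MDSC. Ndufc1 reached at most 15 counts in splenic PMN-MDSC, under the required mean, and passed the filter in 9 of 16 fits with 1 library left out, at -2.30 to -1.77. For Ndufc2 the interaction was -1.94 ± 0.42 (adjusted p = 0.00209, edgeR), from 6.77 to 26.3 CPM in PMN-MDSC and from 35.9 to 27.7 CPM in M-MDSC. Atp5o, a stalk subunit of complex V, followed at -1.31 ± 0.30 (adjusted p = 0.00323, edgeR); a second annotated Atp5o gene shares its exons. The smallest that passed were Atp5a1 (-0.62 ± 0.21), Uqcrfs1 (-0.62 ± 0.24) and Atp5c1, the central shaft of complex V (-0.67 ± 0.21). These 3 did not pass with RLE (adjusted p = 0.105 to 0.155, edgeR), by DESeq2 (0.0772 to 0.147) or without the filter (0.425 to 0.629, edgeR). By complex, 11 of 29 members of complex I, 0 of 4 of complex II, 4 of 8 of complex III, 2 of 10 of complex IV and 3 of 13 of complex V passed. This interaction rests on the libraries labelled tumor PMN-MDSC. With RLE in place of TMM scaling 13 members passed, without the filter 8, and the share of called genes with a higher step was 57.9% with RLE, 46.8% with TMM and 31.8% with upper-quartile scaling. Leaving out 1 library left 9 to 22 calls, with 9 without splenic M-MDSC library 1 or 2, 10 without splenic M-MDSC library 3 or splenic PMN-MDSC library 4, 11 without tumor PMN-MDSC library 1 or splenic PMN-MDSC library 3, and 12 without splenic M-MDSC library 4 or library 3 of either tumor group.

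**Figure D3:**
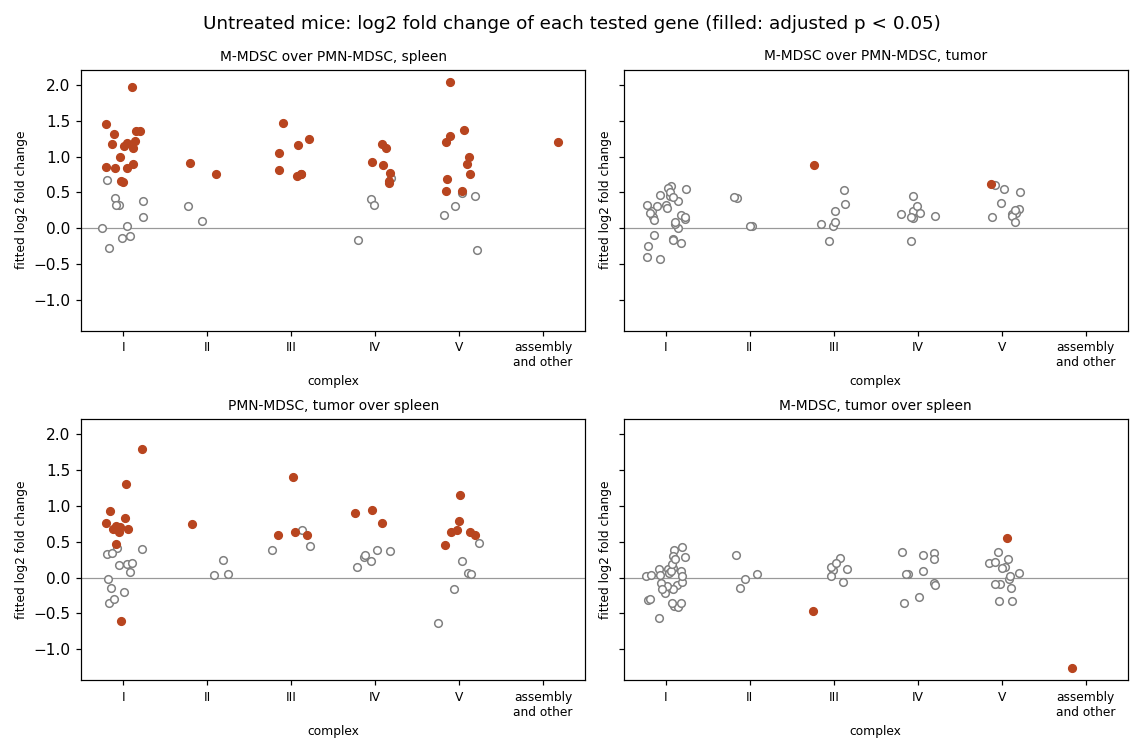
Fitted log2 fold change (vertical axis) of each tested member in untreated mice, by complex (horizontal axis), for 4 comparisons; filled points passed an adjusted p under 0.05 and open points did not. Members sit mostly above 0 for splenic M-MDSC over PMN-MDSC and for the libraries labelled tumor PMN-MDSC over splenic PMN-MDSC, where 45 and 26 passed as higher, and scatter around 0 for tumor over spleen in M-MDSC.

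In splenic PMN-MDSC 1 of 54 tested members rose with poly(I:C)c and 0 fell, beside 11.6% of all genes in either direction and 6.1% higher. The count depended on the fit: DESeq2 gave 2, upper-quartile scaling 0, and the fit over all 8 groups 3 higher and 3 lower, the latter Sdha, Ndufa5 and Cox7b (named after their values were seen). No share over all genes was computed for DESeq2 or for the fit over all 8 groups. In splenic M-MDSC 6 of 77 rose and 0 fell, beside 10.7% of all genes higher and 19.6% in either direction. By the stricter rule 0 passed in either population by edgeR and DESeq2, beside 0.0413% and 2.47%. In tumor, 0 of 64 passed in PMN-MDSC and 0 of 68 in M-MDSC, by edgeR and by DESeq2 alike, beside 3.36% and 2.88% of all genes. By edgeR 6 and 3 of these members had an unadjusted p under 0.05. The median log2 change of the tested members was 0.07, 0.06, 0.13 and 0.15 in the order splenic PMN-MDSC, tumor PMN-MDSC, splenic M-MDSC and tumor M-MDSC. The shares of members called lay below those of all genes.

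Ndufs4, an accessory subunit of complex I needed for a stable matrix arm, was the one member to pass in both splenic populations. It had 27.1, 26.9, 31.8 and 29.2 CPM in untreated and 58.9, 33.0 and 43.6 in treated splenic PMN-MDSC, without overlap (log2 0.93 ± 0.22, adjusted p = 0.0288, edgeR). With upper-quartile scaling, which moved the share of called genes that were higher from 52.5% to 35.6%, its adjusted p was 0.0638 (edgeR). The call was lost without untreated library 1, 3 or 4 or treated library 1 or 3. In splenic M-MDSC it had 54.8, 63.6, 57.1 and 58.3 CPM untreated and 74.2, 97.8, 80.3 and 85.8 treated (log2 0.61 ± 0.13, adjusted p = 0.00844, edgeR). In tumor its change did not pass, at 0.30 ± 0.23 in PMN-MDSC and 0.21 ± 0.18 in M-MDSC (adjusted p = 0.541 and 0.601, edgeR).

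The other members that rose in splenic M-MDSC came from several complexes. Atp5b had 298, 285, 286 and 291 CPM untreated and 376, 427, 336 and 376 treated, a shift of every library (log2 0.46 ± 0.11, adjusted p = 0.0172, edgeR), with an adjusted p of 0.0518 without the filter. Cox5b, a zinc-binding subunit of complex IV, had 45.7 to 60.8 against 67.5 to 79.2 CPM (log2 0.50 ± 0.14, adjusted p = 0.0297, edgeR). Ndufb9 had 30.6 to 41.8 against 44.6 to 59.7 CPM (log2 0.61 ± 0.15, adjusted p = 0.0191, edgeR), with the shared exons noted. Ndufaf3, an assembly factor of complex I, rose from 7.04 to 9.75 CPM to 11.4 to 13.7 (log2 0.66 ± 0.20, adjusted p = 0.0430, edgeR), with 16 to 34 counts in untreated libraries, on average under the required mean; it did not pass with upper-quartile scaling or without the filter (adjusted p = 0.0556 and 0.219, edgeR), nor by DESeq2 (0.0642). Ndufs5 of complex I also passed (log2 0.80 ± 0.23, adjusted p = 0.0371, edgeR), with overlapping groups. Leaving out 1 library at a time gave 1 to 6 calls, with 2 without untreated library 1, 3 without untreated library 2 or treated library 2, and 1 without untreated library 3 or 4. Whether the response to treatment differed between spleen and tumor was tested by an interaction, and 0 of 63 members passed in PMN-MDSC and 0 of 73 in M-MDSC by edgeR and by DESeq2, beside 3.5% and 0.79% of all genes. By edgeR 2 and 4 members had an unadjusted p under 0.05.

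**Figure D4:**
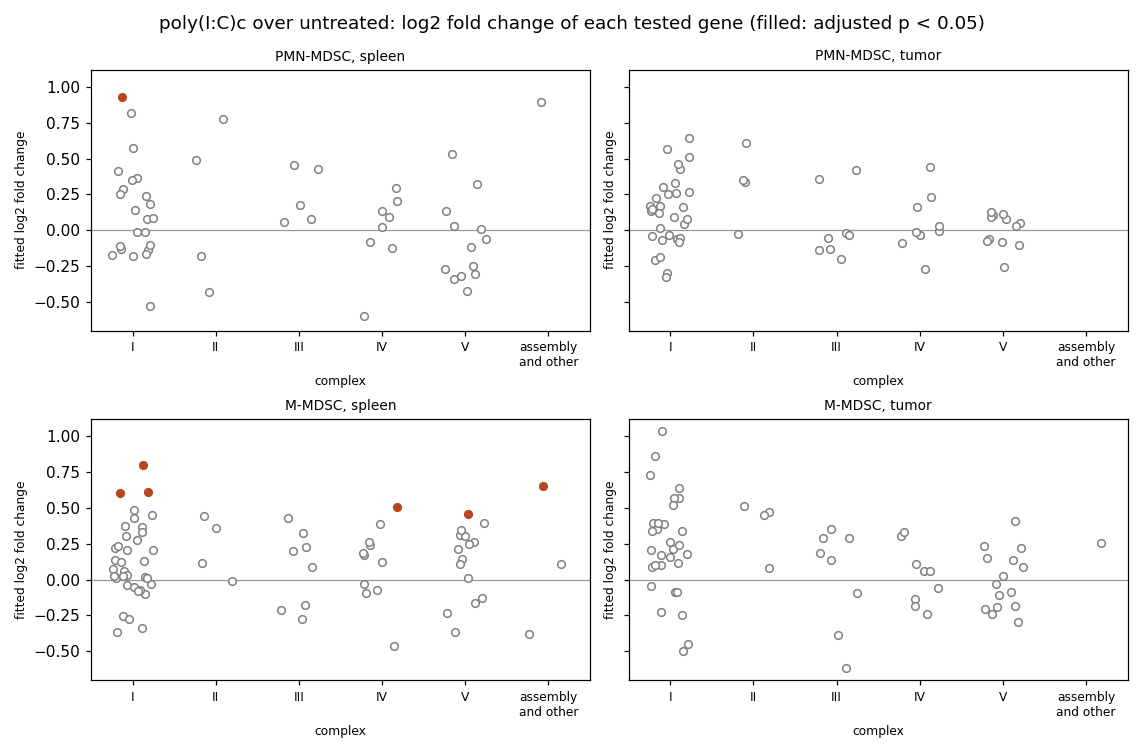
Fitted log2 fold change of each tested member with poly(I:C)c over untreated (vertical axis), by complex (horizontal axis), for the 4 sorted populations; filled points passed an adjusted p under 0.05. There are 1, 0, 6 and 0 filled points in splenic PMN-MDSC, tumor PMN-MDSC, splenic M-MDSC and tumor M-MDSC.

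**Figure D5:**
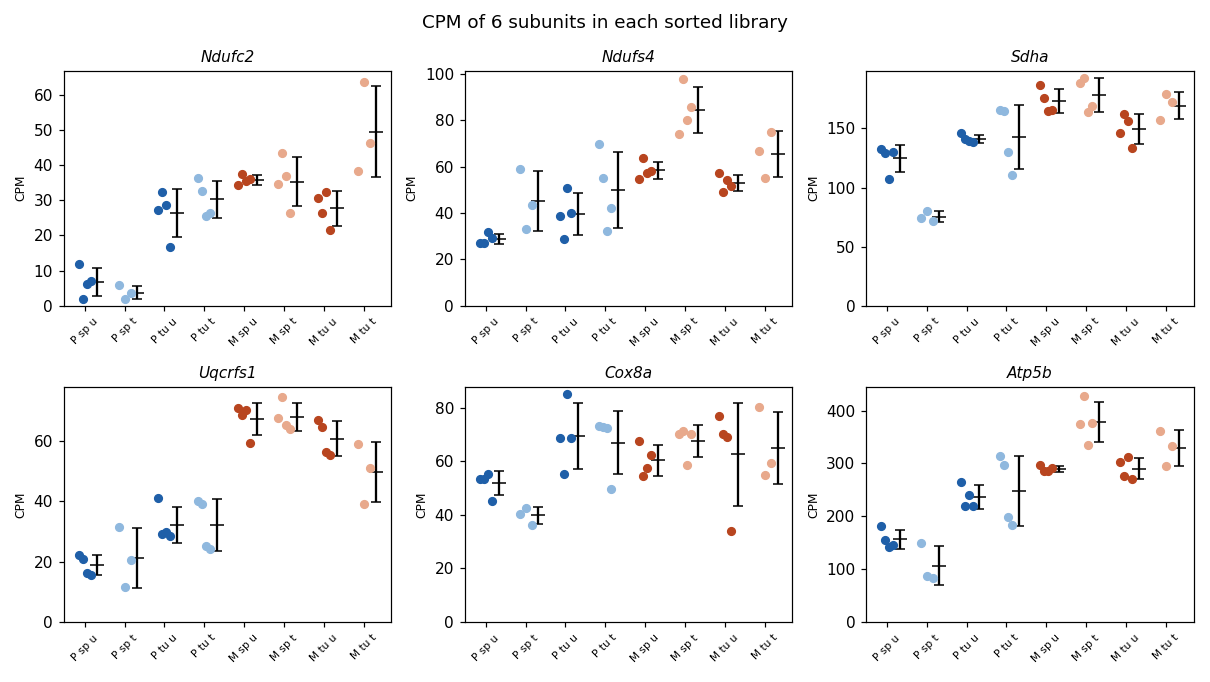
CPM of Ndufc2, Ndufs4, Sdha, Uqcrfs1, Cox8a and Atp5b in each sorted library (points) with mean ± SD (dash and bar), group names as P and M for PMN-MDSC and M-MDSC, sp and tu for spleen and tumor, u and t for untreated and treated. Ndufc2 at 1.86 to 11.9 CPM in splenic PMN-MDSC is below every other sorted library, while Cox8a overlaps between untreated splenic PMN-MDSC and M-MDSC.

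The other genes of the pathway were taken from lists of its parts. Their counts between the splenic populations of untreated mice stand beside 33.4% of all genes higher in M-MDSC and 64.4% called in either direction. The 13 subunits encoded by mitochondrial DNA made up 0.236% ± 0.159 (SD, n = 4) of all counts in untreated splenic PMN-MDSC, 0.849% ± 0.0805 in untreated splenic M-MDSC, 1.28% ± 0.537 in the untreated libraries labelled tumor PMN-MDSC and 0.895% ± 0.0828 in untreated tumor M-MDSC. In spleen of untreated mice 8 of 13 were higher in M-MDSC and 0 lower, with mt-Nd3 and mt-Nd4l tested only through M-MDSC. The smallest adjusted p belonged to mt-Nd3, a membrane subunit of complex I (log2 2.46 ± 0.47, adjusted p = 0.00137, edgeR), with 1 to 25 counts in the PMN-MDSC libraries, and to mt-Co1, the catalytic subunit of complex IV (1.38 ± 0.32, adjusted p = 0.00392, edgeR). From splenic PMN-MDSC to the libraries labelled tumor PMN-MDSC 10 of 13 were higher in untreated mice (mt-Nd3 tested only through tumor), beside 29.4% of all genes, with mt-Co1 at 1029 ± 554 CPM in spleen and 4648 ± 1987 in tumor (log2 2.09 ± 0.40, adjusted p = 0.00133, edgeR).

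With poly(I:C)c some mitochondrial transcripts fell, while 0 nuclear members did in any of the 4 populations when each was fitted alone by edgeR; the fit over all 8 groups gave the 3 lower members in splenic PMN-MDSC named above. In the libraries labelled tumor PMN-MDSC 6 of 13 fell, beside 1.07% of all genes lower, among them mt-Atp6, subunit a of complex V, from 1291 ± 83.0 to 229 ± 156 CPM (log2 -2.54 ± 0.37, adjusted p = 0.00385, edgeR). Another was mt-Nd5 of complex I, from 1277 ± 438 to 381 ± 106 CPM (log2 -1.80 ± 0.28, adjusted p = 0.00522, edgeR). The share of all counts on these 13 genes was 0.848% to 1.96% in the untreated and 0.327% to 0.638% in the treated libraries of this population, without overlap. In splenic M-MDSC 4 of 13 fell and 1, mt-Nd6, rose with overlapping groups, beside 8.96% of all genes lower and 10.7% higher, with mt-Nd4 from 684 ± 87.8 to 325 ± 103 CPM (log2 -1.002 ± 0.23, adjusted p = 0.0157, edgeR). In splenic PMN-MDSC 0 of 11 and in tumor M-MDSC 0 of 13 passed, beside 11.6% and 2.88% of all genes in either direction. The share of mitochondrial transcripts was 0.734% to 0.920% in untreated and 0.424% to 0.745% in treated splenic M-MDSC, with overlap. The difference between nuclear and mitochondrial genes was not tested.

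Of 17 enzymes of the citric acid cycle, which feeds electrons to complexes I and II, 12 were higher in splenic M-MDSC than PMN-MDSC of untreated mice and 1, the malate dehydrogenase Mdh2, was lower (log2 -0.92 ± 0.16, adjusted p = 0.000874, edgeR). Of the 12, Idh3a was tested only through M-MDSC, and in the comparison of sites below only through tumor. Idh3b, a subunit of the NAD-linked isocitrate dehydrogenase, was at 78.7 ± 4.97 CPM in M-MDSC and 22.9 ± 4.79 in PMN-MDSC (log2 1.397 ± 0.15, adjusted p = 4.98e-05, edgeR), and Idh2, the NADP-linked form of mitochondria, at 41.4 ± 1.76 and 9.64 ± 3.86 CPM (log2 1.71 ± 0.23, adjusted p = 0.000191, edgeR). In the untreated libraries labelled tumor PMN-MDSC 7 of 16 tested were higher than in splenic PMN-MDSC, beside the same 29.4%. With treatment 3 rose in splenic M-MDSC, beside 10.7% of all genes higher, among them Mdh2 (log2 0.65 ± 0.11, adjusted p = 0.00309, edgeR) and Suclg1 (0.50 ± 0.15, adjusted p = 0.0370, edgeR), and Fh1, fumarate hydratase, was the 1 that fell (-0.69 ± 0.17, adjusted p = 0.0199, edgeR).

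Of 8 electron carriers outside the complexes 5 were tested, and 2 were lower and 3 higher in splenic M-MDSC than PMN-MDSC. Gpd2, the mitochondrial glycerol-3-phosphate dehydrogenase, was at 98.9 ± 6.69 CPM in PMN-MDSC and 44.1 ± 4.05 in M-MDSC of untreated mice (log2 -1.54 ± 0.13, adjusted p = 1.21e-05, edgeR). Sqor, which oxidizes sulfide, was at 141 ± 16.9 and 89.6 ± 8.38 CPM (log2 -1.03 ± 0.14, adjusted p = 0.000223, edgeR). Both pass electrons to ubiquinone. Etfdh, which passes electrons from fatty acid oxidation to ubiquinone, was higher in M-MDSC, at 11.2 ± 3.09 CPM in PMN-MDSC and 23.4 ± 2.99 in M-MDSC (log2 0.67 ± 0.21, adjusted p = 0.0197, edgeR), as was Etfa, a subunit of the flavoprotein that feeds it (1.22 ± 0.41, adjusted p = 0.0240, edgeR). The Etfa groups overlapped, at 8.48 ± 6.44 CPM in PMN-MDSC and 26.5 ± 6.09 in M-MDSC. The last was Cycs, cytochrome c, at 12.7 ± 2.19 in PMN-MDSC and 28.5 ± 2.92 CPM in M-MDSC. With treatment 3 of 6 tested carriers rose in splenic M-MDSC and 1 fell, beside 10.7% of all genes higher and 8.96% lower. Cycs rose to 53.1 ± 9.26 CPM (log2 0.96 ± 0.16, adjusted p = 0.00266, edgeR), Aifm2 and Gpd2 also passed (1.08 ± 0.27 and 0.42 ± 0.13, adjusted p = 0.0223 and 0.0475, edgeR), Gpd2 with overlapping groups, and Sqor fell to 59.3 ± 10.5 CPM (-0.52 ± 0.15, adjusted p = 0.0318, edgeR). In splenic PMN-MDSC 1 of 4 tested passed, beside 6.1% of all genes higher and 11.6% in either direction. It was Sqor, which rose to 262 ± 58.0 CPM (log2 1.18 ± 0.20, adjusted p = 0.00924, edgeR).

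Of the subunits that the naming rule missed, Cyc1, cytochrome c1 of complex III, and Cox4i1, of complex IV, were higher in splenic M-MDSC (log2 1.22 ± 0.23 and 0.78 ± 0.15, adjusted p = 0.00136 and 0.00142, edgeR), and 3 of 4 tested passed. Of 38 assembly factors outside the rule 18 were tested, and 5 were higher and 3 lower in splenic M-MDSC. All 5 higher ones, Acad9, Atpaf2, Sdhaf1, Tmem126b and Uqcc1, were tested only through M-MDSC. Cox17, a copper chaperone of complex IV, was lower at 23.9 ± 4.82 against 52.6 ± 4.70 CPM (log2 -1.51 ± 0.18, adjusted p = 7.65e-05, edgeR), and Acad9, an assembly factor of complex I, was higher at 23.6 ± 7.30 against 5.91 ± 1.81 (log2 1.59 ± 0.29, adjusted p = 0.00105, edgeR), with 10 to 32 counts in the PMN-MDSC libraries. With treatment 5 of 24 tested rose in splenic M-MDSC, beside the 10.7% of all genes, led by Sco1, another copper chaperone, from 10.7 ± 1.91 to 25.2 ± 5.36 CPM (log2 1.31 ± 0.21, adjusted p = 0.00288, edgeR). Of 13 regulators of mitochondrial gene expression 10 were tested between the splenic populations, and 5 were higher and 3 lower in M-MDSC. Of the 5, Tfam, Polrmt, Tfb2m and Ppargc1b were tested only through M-MDSC. Tfam, which packages and transcribes mitochondrial DNA, was at 28.9 ± 4.08 CPM in M-MDSC and 7.05 ± 2.68 in PMN-MDSC (log2 1.68 ± 0.28, adjusted p = 0.000678, edgeR), with 11 to 33 counts in the PMN-MDSC libraries. Gabpb1, a subunit of the ETS factor GABP, was at 25.7 ± 2.63 and 42.3 ± 7.79 CPM (log2 -1.09 ± 0.16, adjusted p = 0.000367, edgeR).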

How the data were processed

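RNA of sorted PMN-MDSC and M-MDSC and of bulk tumor was sequenced from rRNA-depleted, strand-specific libraries without molecular identifiers. The authors mapped reads with ContextMap and BWA to GRCm38 and deposited strand-specific featureCounts (Subread 1.4.6-p3) counts per gene, which were used as deposited. Of 35 libraries 1 with 10 counts was left out. Columns were assigned to groups by their names, and their running numbers served only for a replicate block. No 2 libraries of a group were identical (48 pairs compared). Per the study, the libraries of a group came from separate mice.

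CPM and FPKM were computed here from the deposited counts. Each comparison used the libraries of its own groups, a filter that required an average of 25 counts per gene, TMM and edgeR's robust quasi-likelihood test (edgeR 4.0.16, R 4.3.3), with Benjamini-Hochberg adjustment over all genes and calls at an adjusted p under 0.05. Tests were two-sided. The fit was also run on simulated counts with a fixed spread and balanced changes in a small part of the genes. Such counts cannot test the scaling of these data, where many genes differ. Alternatives were DESeq2 1.42.0, RLE and upper-quartile scaling, no filter, all 8 sorted groups in 1 fit, the threshold of the study (adjusted p under 0.001 and 2-fold) and leaving out each library. Genes were named as the 3 highest and 3 lowest folds among called members whose groups do not overlap in CPM, with fixed reference subunits, tissue isoforms and, per list, the genes of smallest adjusted p. The members, lists and tests were chosen with earlier results of these data known. Some values of single genes and 1 allele of the tumor line are not reported here.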

Additional observations from a re-analysis of the deposited data

Results flagged for a closer look

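Of 145 groups of 4 libraries examined, 17 held a library whose gap to the nearest other exceeded Dixon's critical value of 0.829 of the range; chance gives about 1 in 20 groups. Several fell on library 4 of untreated tumor M-MDSC, the smallest library, which was lowest for the score of all members (3.82), complex I (3.94), complex III (4.45) and complex V (5.12), and highest for Ndufv1 (65.6 CPM). Splenic M-MDSC library 3 of untreated mice was lowest for complex III (5.29) and complex IV (3.32), and library 4 was highest for Uqcrb (27.9 CPM). In untreated splenic PMN-MDSC library 1 was highest for the score of all members (3.67) and for Ndufv1 (16.4 CPM), and library 3 was lowest for Sdha (107 CPM). In the untreated libraries labelled tumor PMN-MDSC library 1 was highest for complex IV (3.16) and Uqcrfs1 (41.2 CPM), and library 2 was lowest for Ndufv1 (23.8 CPM). In treated mice, splenic M-MDSC library 2 was highest for complex II (6.34) and library 3 lowest for Cox8a (58.7 CPM), and tumor PMN-MDSC library 4 was lowest for Cox8a (49.5 CPM).

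The step from spleen to tumor differed between M-MDSC and PMN-MDSC for 21 of 65 tested members in untreated mice, by the interaction test (edgeR). These are 32.3% of the tested members, beside 37.3% of all genes called in either direction. All 21 had the lower step in M-MDSC, and the step in PMN-MDSC rests on the libraries labelled tumor PMN-MDSC, whose markers went against that label.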

How the results depend on the processing

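Of the 40 values of named genes, 0 changed direction under the alternatives in which the gene was tested. By edgeR the stricter threshold of the study left 0 members called for treatment in both splenic populations and for the sites in both untreated cell types. It also left 0 for the cell types in untreated tumor and for the interaction of site and cell type. It left 2 for treated PMN-MDSC across sites, and 13 and 8 for the cell types in untreated and treated spleen. By DESeq2 these last 3 counts were 4, 18 and 19. DESeq2 also left 3 and 1 for the sites in untreated PMN-MDSC and M-MDSC, and 2 for that interaction. For treatment in splenic PMN-MDSC, upper-quartile scaling gave 0 calls, DESeq2 2 and the fit over all 8 groups 6. That fit gave 31 calls for treated PMN-MDSC across sites, 1 for untreated M-MDSC across sites and 1 for the cell types in treated tumor. DESeq2 gave 1 for treated M-MDSC across sites. The interaction of site and cell type gave 13 calls with RLE and 8 without a filter, and that of treatment and site in PMN-MDSC gave 1 without a filter. The cause was not tested. No share over all genes was computed for DESeq2, the data without a filter, the fit over all 8 groups, the replicate block or the fits with 1 library left out. Their counts are therefore not set against such a share.

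With TMM-scaled CPM the score difference was 0.11 for treatment in splenic M-MDSC, 0.35 and 0.53 for the libraries labelled tumor PMN-MDSC over splenic PMN-MDSC in untreated and treated mice, -0.11 for tumor over spleen in untreated M-MDSC, and 0.57 and 0.81 for M-MDSC over PMN-MDSC in untreated and treated spleen.

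Leaving out 1 library gave 0 to 2 calls for treatment in splenic PMN-MDSC, 1 to 6 in splenic M-MDSC and 0 in both tumor populations. Across sites it gave 15 to 26 for untreated and 8 to 26 for treated PMN-MDSC, 1 to 6 for untreated and 0 for treated M-MDSC. Between cell types it gave 40 to 47 and 29 to 47 in untreated and treated spleen, 1 to 5 in untreated tumor and 0 in treated tumor. The interaction of treatment and site gave 0 to 1 calls for PMN-MDSC and 0 for M-MDSC, while the interaction of site and cell type gave 9 to 22. Of the 40 values of named genes, DESeq2 and RLE kept 35 each past the threshold, upper-quartile scaling 38, the data without a filter 28 and the stricter threshold 8. The fit over all 8 groups kept 26 of 32, and leaving out 1 library kept 244 of 339.

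The running numbers of the columns, read in runs of 4 (for bulk tumor by the last digit), give the numbers that the titles share across sites and cell types in all 9 groups, a reading chosen after seeing the data; no source used here says that a number is a mouse. Same-numbered libraries correlated over 0.1 in every pair in 3 of 8 comparisons. The best match in the other group carried the same number for 4 of 4 libraries between cell types in untreated spleen and in untreated tumor. Across sites it did so for 3 of 3 in treated PMN-MDSC and M-MDSC, and for 2 of 4 in both untreated. Between cell types in treated spleen and treated tumor it was 2 of 3. If a number is a mouse, these comparisons are paired, which the main tests leave out. A replicate block on these numbers gave 21, 18, 2 and 0 calls across sites for untreated and treated PMN-MDSC and untreated and treated M-MDSC, 47, 30, 2 and 0 between cell types in untreated and treated spleen and tumor, and 22 for the interaction of site and cell type. It reversed 0 called members and moved 0 counts by over 1.5 times. It lost 6 and 4 calls for untreated and treated PMN-MDSC across sites, 1 for untreated M-MDSC and 10 between cell types in treated spleen. Named genes among these include Uqcrc2 across sites in untreated M-MDSC (adjusted p = 0.0544, edgeR), Atp5h and Ndufa6 between cell types in treated spleen (0.0644 and 0.0859) and Ndufb9 across sites in untreated PMN-MDSC (0.0586). Of 34 named values it kept 29.

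Without the filter the values were log2 2.03 for Atp5g1 between the splenic populations of untreated mice and -1.86 for Ndufc1 in the interaction of site and cell type. Depth limits low members: 3 counts amount to 0.689 to 3.78 CPM in sorted libraries.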
